A study of Homo sapiens with 18 samples.

Results

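YTHDF2-ADAR editing was compared between polysome RNA and total RNA in HEK293T cells, a line derived from human embryonic kidney. The genes described are all 4547 of the authors' YTHDF2-ADAR editing table, taken whole with no choice by editing change, out of 60675 human gene rows in the count table and 8714 genes edited with any construct. Of these, 4450 have a value in both fractions, 86 lack one in total RNA and 11 lack one on polysomes.

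YTHDF2 is a reader of N6-methyladenosine (m6A), the most common internal modification of mRNA, and is best known for bringing methylated transcripts to deadenylation and decay. In the HyperTRIBE assay the reader is fused to an ADAR adenosine deaminase, which converts adenosines near the bound site to inosines that are read as G, so edits mark transcripts that the fusion has met. Polysome fractions hold mRNAs that carry several ribosomes, and the study sequenced them beside total RNA of the same lines, so the comparison sets editing of heavily translated copies of a gene against editing of all its copies.

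All lines were HEK293T cells carrying YTHDF1-ADAR, YTHDF2-ADAR or YTHDF3-ADAR, in which 24 h of doxycycline at 1 µg/mL switched the fusion on, treated with 100 µg/mL cycloheximide, which holds ribosomes on mRNA, for 10 min. Each line gave 3 libraries of total RNA and 3 of polysome RNA, so there were 6 groups and 18 libraries, and the pooled gradient fractions hold mRNAs with more than 2 ribosomes. The labels do not say whether replicates are separate cultures, or whether a line is a clone, so p-values measure only the spread between these samples. No library without a fusion was used here, so editing that occurs without the fusion was not measured.

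The YTHDF2-ADAR libraries held between 43291966 and 67549159 counts. YTHDF2 itself stood at 260 to 312 CPM (read counts made comparable between libraries by depth and TMM factors) in the 6 YTHDF2-ADAR libraries and at 113 to 180 CPM in the 12 others, and the ranges do not overlap. ADARB1, which encodes the deaminase ADAR2, stood at 32.4 to 40.5 CPM with YTHDF2-ADAR, below its 198 CPM or more with YTHDF1-ADAR and 1080 CPM or more with YTHDF3-ADAR. All 8 HEK293T markers were detected in every YTHDF2-ADAR library, with a summed level of 728 to 913 CPM, while 6 markers of blood, liver, endothelium, muscle and glia summed to 1.69 to 2.07 CPM. Over all genes, replicate 1 differed most in total RNA. The chi-square per degree of freedom of its counts was 66.75 and 50.23 against replicates 2 and 3, and 6.248 between those. On polysomes replicate 3 differed most, at 35.11 and 31.56 against replicates 1 and 2, which stood at 14.81 from each other. In the summed level of brain markers, replicate 2 stands apart in both fractions. The sum of 12 brain markers, a list chosen after values were seen, was 52.1, 8.7 and 38.8 CPM in total RNA replicates 1, 2 and 3 and 43.5, 8.02 and 48.3 CPM on polysomes. SNAP25, a synaptic fusion protein, stood at 0.0768 and 0.132 CPM in the total and polysome libraries of replicate 2 and at 6.67 CPM or more in the other 4. The listed AQP4, THY1 and CX3CR1 did not have replicate 2 lowest in both fractions, whereas the other listed markers did. In replicates 1, 2 and 3 AQP4 stood at 0.359, 0.25 and 0.236 CPM in total RNA. On polysomes THY1 stood at 0.193, 0.369 and 0.272 CPM and CX3CR1 at 0.0876, 0.106 and 0.175 CPM. In such bulk RNA, fewer cells of a type and less RNA per cell cannot be told apart. In the other lines, replicate 3 of YTHDF1-ADAR had the low sum, at 13.7 CPM in total RNA and 13.5 CPM on polysomes, against 43.2 CPM or more in its other libraries and in every YTHDF3-ADAR library.

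The editing score of a gene is a sum over its sites that never exceeds their number, and their quotient, in percent, is called editing per site. The authors deposited 1 score per fraction over the 3 replicates. Differences of editing are therefore descriptions with no spread and no test, and the read depth behind them is unknown.

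Most edited genes were edited at about 1% per site, and the level on polysomes was slightly lower. The median gene had 1.19% in total RNA and 1.13% on polysomes, and the median of the differences within genes was -0.12 percentage points, with 25% and 75% of genes below -0.52 and 0.36. Editing was lower on polysomes in 2596 of 4450 genes, or 58.3%, and higher in 1854. Editing differed by at least 5 points downward in 56 genes (1.26%) and upward in 50 (1.12%). In the odds of editing, which weigh small levels by their ratio, 1135 of 4276 genes with values above 0 were at least 1.5-fold lower (26.5%) and 727 at least 1.5-fold higher (17.0%). The same lean was larger with the other readers. With YTHDF1-ADAR the median difference was -0.27 points and 63.2% of 6540 genes were lower, with 155 lower and 64 higher by 5 points. With YTHDF3-ADAR it was -0.30 points and 66.7% of 6977 genes were lower, with 113 lower and 66 higher. Whether these medians differ between readers was not tested, since each reader has 1 value per gene and fraction.

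**Figure D1:**
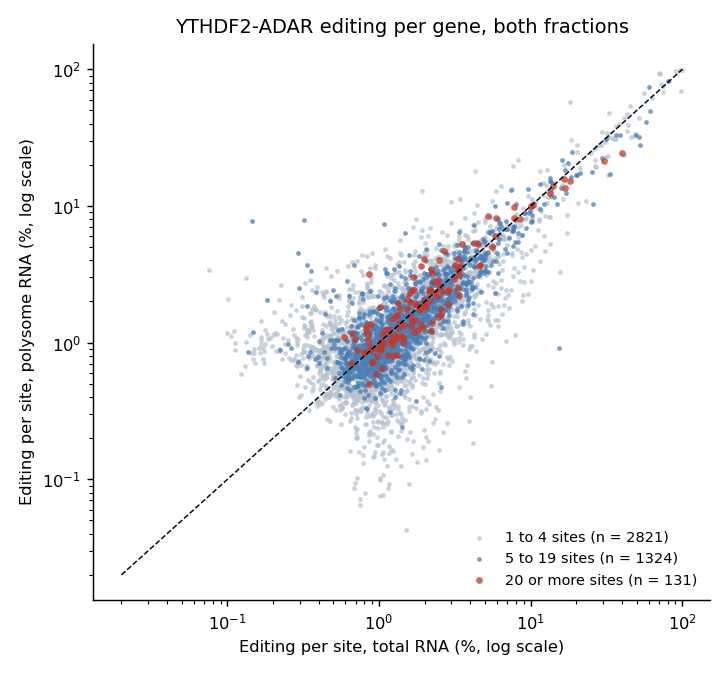
Editing per site in total RNA (x axis) against polysome RNA (y axis), both in percent on log scales, for the 4276 genes with values above 0 in both fractions, coloured by number of sites. The dashed line marks equal values, and genes with few sites scatter farthest from it.

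The lean did not grow with the number of sites. Editing was lower on polysomes in 57.7% of 1413 genes with 1 site, in 59.7% of 883 genes with 5 to 9 sites, in 62.0% of 453 genes with 10 to 19 sites and in 52.7% of 131 genes with 20 or more. What changed with the number of sites was the scatter. In genes with 1 site the middle 50% of differences ran from -0.69 to 0.51 points, and in genes with 20 or more sites from -0.29 to 0.36. Of the genes that differed by 5 points, 28 of the 56 lower and 22 of the 50 higher have 1 site. Editing per site itself was higher in genes with more sites, from a median of 1.08% in total RNA at 1 site to 1.71% at 20 or more.

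The 10 genes with the most sites show how small most differences were. ATP2B1, a plasma membrane calcium pump, has 101 sites and was edited at 4.60% in total RNA and 3.71% on polysomes. NCKAP1, a subunit of the WAVE actin regulator, has 66 sites, at 1.61% and 1.32%. HNRNPC, a nuclear pre-mRNA packaging protein, has 49 sites at 10.4% and 10.2%, and ALYREF, an mRNA export adaptor, has 87 sites at 5.78% and 6.03%. Like ALYREF, the other 6 were higher on polysomes, and 4 of these 6 encode large cytoskeletal proteins. SPTAN1, the alpha chain of non-erythroid spectrin, has 92 sites and stood at 1.67% in total RNA and 3.04% on polysomes. SPTBN1, its beta partner, has 66 sites at 3.32% and 4.08%. MYH10, a non-muscle myosin heavy chain, has 64 sites at 0.67% and 1.18%. The kinesin KIF1B, which carries cargo along microtubules, has 59 sites at 1.38% and 1.78%. CHD3, a chromatin remodeler of the NuRD complex, has 72 sites at 1.30% and 1.58%, and the clathrin heavy chain CLTC has 54 sites at 0.82% and 1.25%. SPTAN1 and MYH10 were also higher on polysomes with both other readers. With YTHDF1-ADAR the differences of CHD3, SPTBN1 and KIF1B were below 0, at -0.17, -0.21 and -0.30 points. That of CLTC was below 0 with YTHDF3-ADAR, at -0.27 points.

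The RNA of 5 of these 6 genes fell on polysomes. SPTAN1 RNA stood at 175, 158 and 148 CPM in total RNA and at 90.4, 102 and 93.5 CPM on polysomes, so the fractions do not overlap. It fell by 0.75 on the log2 scale (SE 0.12, edgeR adjusted p = 0.000715) and passed in all 14 settings tried. MYH10 stood at 209, 254 and 233 CPM and at 145, 129 and 126 CPM, and fell by 0.80 (SE 0.18, edgeR adjusted p = 0.00608). SPTBN1 fell by 0.42 (SE 0.10, edgeR adjusted p = 0.0072) and CHD3 by 0.44 (SE 0.11, edgeR adjusted p = 0.0114), and without polysome replicate 3 their edgeR adjusted p was 0.0521 and 0.0527. Without replicate 2 of both fractions the log2 changes of MYH10, SPTBN1 and CHD3 were -0.71, -0.43 and -0.45 and missed the threshold. Without normalization factors they were -0.45, -0.05 and -0.08 and missed it too. CLTC stood at 320, 468 and 433 CPM in total RNA and at 221, 225 and 217 CPM on polysomes, and its log2 change of -0.88 (SE 0.23) had an edgeR adjusted p of 0.0177, but it passed in 7 of 14 settings, with an adjusted p of 0.0684 under the replicate block and of 0.0601 to 0.077 without total RNA replicate 2 or 3 or polysome replicate 1 or 3. KIF1B did not pass, at 120, 130 and 126 CPM against 120, 125 and 126 CPM. Of the remaining 4, HNRNPC RNA rose by 0.39 (SE 0.12, edgeR adjusted p = 0.0429) but missed the threshold without any single library, with an adjusted p of 0.08 to 0.143, while ATP2B1, NCKAP1 and ALYREF did not pass, with edgeR adjusted p of 0.433, 0.438 and 0.534.

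Over the whole table, genes with an RNA call also leaned to opposite changes of editing per site and RNA level between the fractions. Among 4505 edited genes with a test of RNA level, 580 rose on polysomes (12.9%, against 10.4% of all tested protein-coding genes and 6.71% of all tested genes) and 230 fell (5.11%, against 4.78% and 9.04%). With the replicate block 1276 and 457 of the same 4505 genes rose and fell. Over all 26804 tested genes 4148 rose (15.5%) and 4010 fell (15.0%). These include noncoding genes, whereas the 4505 are all protein-coding, and no share over protein-coding genes was taken with the block. The rising count depends on single libraries: it was 262 without total RNA replicate 2, 201 without total RNA replicate 3, and 284, 381 and 230 without polysome replicates 1, 2 and 3, while the falling count was 147 without total RNA replicate 3 and 141 without polysome replicate 3. It also depends on scaling, with 2757 rising and 64 falling when no normalization factors are used, which moves the median log2 change of all tested genes from 0.03 to 0.40. Editing per site was lower on polysomes in 400 of the 575 genes whose RNA rose and that have both values (69.6%), with a median difference of -0.22 points. In the 3606 genes with no RNA call the share was 58.0% and the median -0.11 points. In the 227 genes whose RNA fell the share was 36.6% and the median 0.27 points, with 144 genes higher on polysomes. In the odds, 78 of 220 genes with falling RNA were at least 1.5-fold higher and 31 at least 1.5-fold lower, whereas among 557 genes with rising RNA these numbers were 59 and 186. With calls from the replicate block the shares were 68.0%, 56.5% and 42.8%. RNA levels and editing scores come from the same libraries and are not independent, and the relation carries no test. Across 4408 genes, Spearman's rho of the editing difference with the log2 RNA change was -0.15, which describes these pooled values and is not over replicates.

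The other readers gave the same order, each with RNA calls and editing from its own libraries. With YTHDF1-ADAR editing was lower on polysomes in 73.5% of 1036 genes with rising RNA, 63.0% of 4958 with no call and 44.4% of 504 with falling RNA, with median differences of -0.49, -0.26 and 0.09 points. With YTHDF3-ADAR the shares were 82.8% of 1096 genes, 66.2% of 5243 and 39.1% of 562, with medians of -0.61, -0.27 and 0.16 points.

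Exonic length went with the editing difference too. In quintiles of exonic length, from 461 to 3239 bases up to 9148 to 47883 bases, the share of genes with lower editing on polysomes was 64.9%, 62.5%, 57.6%, 56.2% and 50.4%. The median difference went from -0.22 points in the shortest quintile to -0.0020 points in the longest. Among genes with at least 5 sites the share went from 72.1% of 208 genes to 48.1% of 347. Among genes with 1 site it was 62.0%, 61.7%, 52.5%, 56.6% and 53.6%, not in order of length. Length and RNA change are linked, since genes with rising RNA had a median length of 4039 bases and genes with falling RNA 7101 bases. Within genes with no RNA call the share still went from 64.0% to 52.2%, and within genes with falling RNA from 55.2% of 29 to 24.4% of 82. Within genes with rising RNA it stood between 65.0% and 71.3% in all quintiles, in no order of length. The range over the same quintiles was 58.9% to 65.9% with YTHDF1-ADAR and 63.5% to 67.8% with YTHDF3-ADAR, and whether it differs between readers was not tested. The RNA levels used here are not per length, and longer transcripts give more reads per molecule to each fraction alike.

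**Figure D2:**
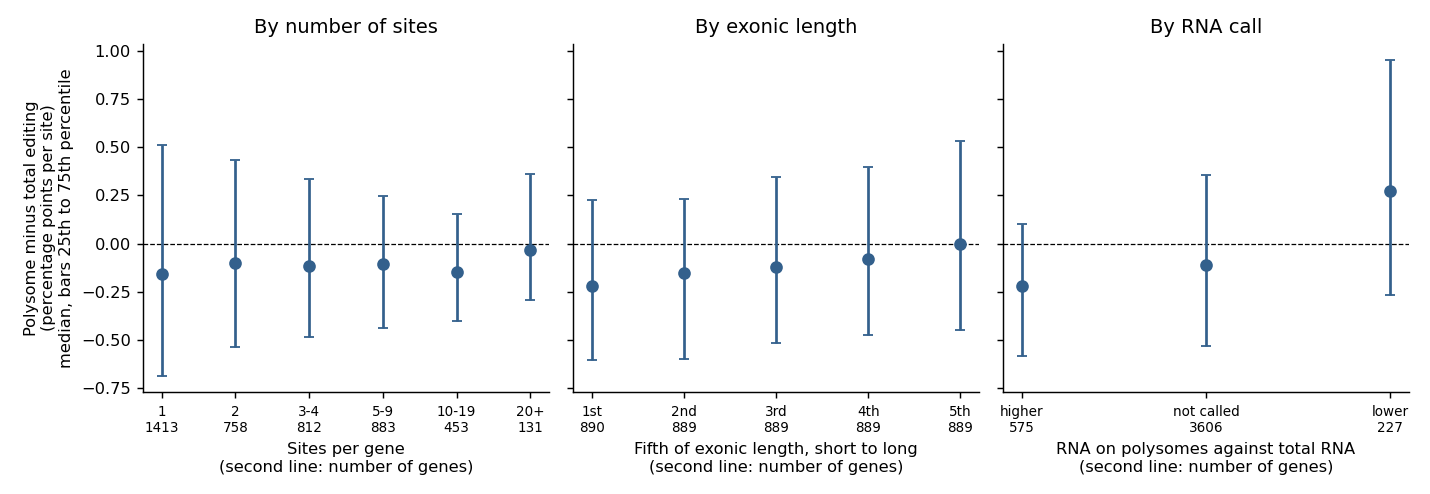
Median difference of editing per site, polysome minus total RNA, in percentage points, by number of sites, by quintile of exonic length and by the RNA call on polysomes; bars run from the 25th to the 75th percentile of genes and are not errors. The 227 genes whose RNA fell on polysomes have a median above 0, at 0.27 points, and the 575 whose RNA rose one of -0.22 points.

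The largest differences below 0 among genes with at least 5 sites lay mostly in highly edited genes, some of them known for expression in neurons. RIPOR2 has 7 sites and was edited at 52.9% in total RNA and 27.7% on polysomes, although its RNA was near 0.4 CPM in both. ALDOC, the brain form of aldolase, has 16 sites at 52.1% and 32.0%. GPM6A, a neuronal membrane glycoprotein, has 9 sites at 49.4% and 32.8%. APLP1, a relative of the amyloid precursor protein, has 12 sites at 57.1% and 41.1%. CA11, a carbonic anhydrase relative without enzyme activity, has 7 sites at 33.2% and 17.3%. STK16, a Golgi-associated kinase, has 22 sites at 39.8% and 24.4%, the most sites of these genes. GPC3, a cell-surface proteoglycan, has 5 sites at 25.7% and 10.3%, and GOLGA2, a Golgi matrix protein, has 6 sites at 15.3% and 0.91%. ENO2, the neuronal enolase, has 11 sites at 61.6% and 49.5%, and CAMKV, a kinase-like protein of synapses, has 21 sites at 30.6% and 21.3%. CAMKV closes the 10 lowest at -9.34 points, and the next gene, TEF, stood at -7.58.

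All 10 genes were lower on polysomes with YTHDF1-ADAR as well, except GOLGA2, at 33.0% in total RNA and 37.7% on polysomes. With YTHDF3-ADAR GOLGA2 stood at 17.4% and 24.7% and GPC3 at 31.2% and 32.7%, while the other 8 were lower. The differences of ALDOC were -20.1, -19.9 and -4.33 points with YTHDF2-ADAR, YTHDF1-ADAR and YTHDF3-ADAR. Those of GPM6A were -16.6, -20.8 and -12.3 points, and those of STK16 were -15.4, -18.7 and -0.22 points. None of the 10 genes changed in RNA level between the fractions in the edgeR fit, with adjusted p from 0.314 to 0.944, while GOLGA2 RNA was called lower with the replicate block.

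Not every highly edited neuronal gene was lower. NDRG4, a gene of brain and heart, had the highest mean editing among genes with at least 5 sites, at 79.9% in total RNA and 82.3% on polysomes over 13 sites. KIF5A, a neuronal kinesin, has 17 sites at 60.1% and 74.5%, the largest difference above 0 among genes with at least 5 sites, and it was higher on polysomes with YTHDF1-ADAR (53.9% and 65.9%) and YTHDF3-ADAR (46.5% and 57.3%). DNM1, the neuronal dynamin, has 19 sites at 18.8% and 24.9%, and its RNA fell by 0.66 on the log2 scale (SE 0.20, edgeR adjusted p = 0.0346), a call that was lost without any single library except total RNA replicate 2, with an adjusted p of 0.0528 to 0.124. With YTHDF1-ADAR DNM1 was lower on polysomes, at 43.0% and 36.5%. Over all genes, those with a mean of at least 10% held 77 lower and 52 higher values. Of the 15 genes at 50% or more, 10 were higher on polysomes, and of the 114 at 10 to 50%, 42 were.

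The RNA of some highly edited genes was lower in replicate 2 than in the other replicates. GPM6A stood at 12.6, 3.48 and 8.39 CPM in total RNA replicates 1, 2 and 3 and at 11.3, 4.63 and 12.4 CPM on polysomes. ENO2 stood at 11.9, 4.67 and 9.52 CPM and at 9.24, 4.05 and 11.3 CPM. APLP1 stood at 14.6, 5.09 and 11.2 CPM and at 14.5, 6.91 and 14.3 CPM. Replicate 2 was the lowest library of its fraction for each of these 3 genes, and it also had the low sum of brain markers. The log2 ratio of replicates 1 and 3 over replicate 2 was 1.36 for GPM6A, 1.17 for ENO2, 1.13 for APLP1, 1.04 for NDRG4, 0.88 for ALDOC and 0.66 for KIF5A. It was 0.29 for DNM1, 0.06 for STK16, 0.05 for GOLGA2 and -0.13 for GPC3. Its median was 0.02 over all edited genes and 0.66 over the 15 genes edited at 50% or more. At least 1.5-fold more RNA in replicates 1 and 3 was found in 26 of 4408 genes, and 18 of these 26 were edited at 10% or more. What part replicate 2 has in the pooled scores was not tested, since no score per library is used here. Among the 4381 genes whose RNA ratio was known and within 1.5-fold, 58.3% were lower on polysomes and the median difference was -0.12 points, with 49 lower and 44 higher by 5 points.

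**Figure D3:**
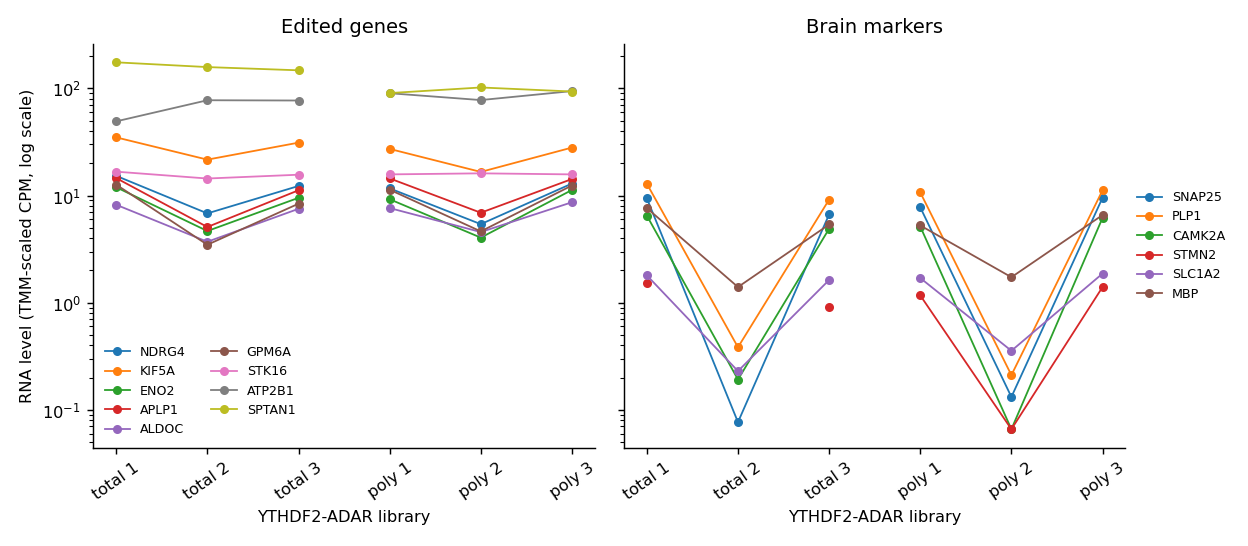
RNA level in TMM-scaled CPM on a log axis in each YTHDF2-ADAR library, for 9 edited genes (left) and 6 brain markers (right); lines join libraries of a fraction and a level of 0 is not drawn. Replicate 2 is lowest for NDRG4, KIF5A, ENO2, APLP1, ALDOC and GPM6A in both fractions. For STK16 it is lowest in total RNA only, for ATP2B1 on polysomes only and for SPTAN1 in neither.

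The other 8 genes with the largest differences were near or at 0 in total RNA. NT5DC1, a putative nucleotidase, has 6 sites and is listed at 0 in total RNA and 10.0% on polysomes. GUCY1B1, a subunit of the nitric oxide receptor, has 10 sites at 0 and 7.96%. ENC1, a Kelch ubiquitin ligase adaptor, has 13 sites at 0.15% and 7.77%. CRMP1, a collapsin response mediator, has 6 sites at 0.32% and 7.93%, and PDP1, a phosphatase of pyruvate dehydrogenase, has 11 sites at 0 and 6.37%. BMPR2, the type II BMP receptor, has 5 sites at 1.08% and 7.40%, RGS2, a regulator of G protein signalling, 9 sites at 0 and 5.81%, and TRIM3, a ubiquitin ligase, 5 sites at 0 and 5.77%. TRIM3 closes the 10 highest, and the next gene, OFD1, stood at 5.62 points. These genes were not silent in total RNA: NT5DC1 stood at 26.1 ± 3.94 CPM (SD, n = 3), BMPR2 at 51.0 ± 13.5 CPM (SD, n = 3) and RGS2 at 4.46 ± 0.34 CPM (SD, n = 3). RGS2 RNA stood at 7.10, 6.35 and 6.89 CPM on polysomes and rose by 0.60 on the log2 scale (SE 0.14, edgeR adjusted p = 0.00822), in all 14 settings.

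Nor were they unedited in total RNA of the other lines. With YTHDF1-ADAR and YTHDF3-ADAR, total RNA editing was 11.4% and 10.5% for NT5DC1, 5.75% and 11.5% for GUCY1B1, 6.78% and 18.9% for ENC1, 6.99% and 15.6% for PDP1 and 4.78% and 11.6% for RGS2. In total RNA 151 genes are listed at 0, and 23 are on polysomes. Of these 151, 101 have 1 site, the median on polysomes was 2.21%, and 74 of the 96 found in both other tables exceeded 1% in total RNA there. The 86 genes with no value in total RNA had a median of 7.26% on polysomes, 21 of them at 20% or more, and 41 of the 42 found in both other tables exceeded 1% in total RNA there. Median RNA in total libraries was 27.2 CPM for genes listed at 0, 9.07 CPM for those with no value and 44.9 CPM for genes above 0 in both fractions. A score of 0 from sites that few reads covered cannot be told apart from a score of 0 at well-read sites. Without genes at 0 in either fraction, 60.2% were lower on polysomes, with 52 lower and 33 higher by 5 points.

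**Figure D4:**
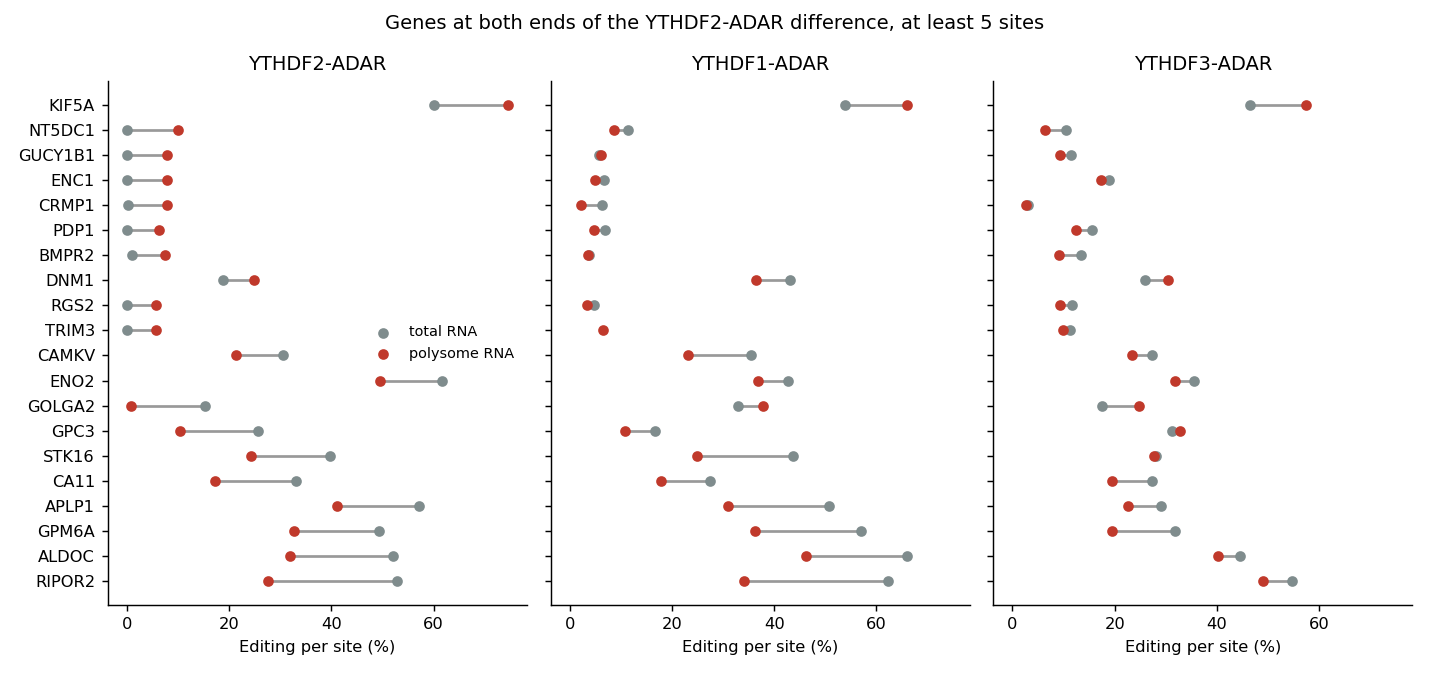
Editing per site in percent in total RNA (grey) and polysome RNA (red) for the 10 highest and 10 lowest YTHDF2-ADAR differences among genes with at least 5 sites, with the same genes in the YTHDF1-ADAR and YTHDF3-ADAR tables. TRIM3 has no total RNA value with YTHDF1-ADAR, and the genes near 0 in YTHDF2-ADAR total RNA are edited in total RNA of the other lines.

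Editing was then read by gene function, over 45 lists, each beside the tested protein-coding genes whose symbol belongs to 1 gene ID, of which 4505 of 15147 were edited (29.7%), with 2573 lower, 1835 higher and a median difference of -0.12 points. With the replicate block, RNA of 1261 of the 4408 genes with both values rose and of 453 fell, against 575 and 227 without it. RNA regulators come first. Of 25 m6A writers, erasers and readers 18 were edited, 10 lower and 8 higher on polysomes, with a median of -0.11 points. YTHDC1, the nuclear m6A reader, has 7 sites at 0.72% and 0.64%, and the reader candidates FXR2 and PRRC2A have 16 sites at 1.18% and 0.85% and 13 sites at 0.73% and 0.95%. The construct genes carried few sites: YTHDF1, YTHDF2 and YTHDF3 have 1 site each and ADAR none. YTHDF2 stood at 2.48% in total RNA and 1.44% on polysomes. ADARB1 has 4 sites at 12.7% and 10.6%, against 95.2% and 96.1% with YTHDF3-ADAR. Its RNA stood at 32.4 to 40.5 CPM with YTHDF2-ADAR and at 1080 CPM or more with YTHDF3-ADAR. Reads of the cell's own gene and of a fusion were not told apart for the construct genes. The deadenylation, decapping and decay machinery, to which YTHDF2 hands its targets, had 27 genes with both values, 16 lower and 11 higher, with a median of -0.11 points. CNOT2, a subunit of the deadenylase complex, stood at 0.81% and 0.88%, and PUM2, an RNA-binding repressor, at 1.00% and 0.73%.

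Some lists had a median further below 0 than all genes. Of 36 proteasome genes 24 were edited, 19 lower and 5 higher, with a median of -0.23 points, and RNA of 10 of the 24 rose on polysomes (15 with the replicate block), where 12.9% of all edited genes rose. PSMA6, a core particle subunit, stood at 1.00% and 0.64%, and PSMD1, a regulatory particle subunit, went the other way at 0.54% and 0.91%. All 9 edited genes of sterol synthesis and uptake were lower, with a median of -0.71 points. SCAP, the sterol sensor that escorts SREBP, has 13 sites at 2.15% and 0.89%, while HMGCS1 with 20 sites stood at 0.89% and 0.88%. Genes with a TMEM symbol were lower in 33 and higher in 12, with a median of -0.37 points. TMEM132A has 14 sites at 4.26% and 2.53%. DNA replication licensing and fork genes were lower in 9 and higher in 2, with a median of -0.35 points, although RFC5, a clamp loader subunit, stood at 1.25% and 3.47%. Aminoacyl-tRNA synthetases were lower in 13 and higher in 5, with a median of -0.24 points, and MAPK, PI3K and mTOR signalling genes in 17 and 7, with a median of -0.20 points. Other lists of protein turnover and membrane proteins lay nearer to all genes. Deubiquitinases were lower in 15 and higher in 10, with a median of -0.13 points, and lysosome and membrane receptors in 12 and 11, with a median of -0.03 points.

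Genes known as natural substrates of ADAR enzymes give a second view, since some of their editing needs no fusion. Of 34 such genes tested 17 were edited, 13 lower and 4 higher on polysomes, with a median of -0.51 points. Of the 4 with the most sites 3 were higher. CYFIP2, an actin regulator, has 33 sites at 2.43% and 2.88%, and COPA, a coat protein subunit, has 22 sites at 0.59% and 1.10%. TMEM63B, a membrane channel protein, has 18 sites at 2.60% and 2.43%. SON, a splicing factor, has 15 sites at 0.97% and 1.12%. Which of their sites are the natural ones is not used here.

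Some lists had a median above 0. The cytoskeleton, kinesin and dynein list had the largest share edited of those tested, 34 of 42 genes (81.0%). Median RNA of its tested genes in YTHDF2-ADAR libraries was 117.5 CPM, against 21.28 CPM for all tested protein-coding genes. How RNA level bears on the share edited was not tested. Of the 34 genes 13 were lower and 21 higher, with a median of 0.12 points. RNA of 5 of them fell and of 4 rose (10 and 5 with the replicate block), where 5.11% and 12.9% of all edited genes did. Chromatin remodelers were lower in 8 and higher in 13, with a median of 0.28 points, and RNA of 5 of these 21 fell (10 with the replicate block), where 5.11% of all edited genes fell. SMARCA2, an ATPase of the SWI/SNF complex, has 29 sites at 2.69% and 4.66%, while SMARCC2 of the same complex has 30 sites at 1.31% and 0.81%. Histone lysine methyltransferases and demethylases divided 11 to 12, with a median of 0.19 points, and KMT2D stood at 0.66% and 0.92%. The hnRNP proteins were lower in 5 and higher in 11, with a median of 0.34 points. HNRNPD, which binds AU-rich elements, has 7 sites at 0.52% and 2.21%. The SR proteins and related splicing factors were lower in 12 and higher in 11, with a median of -0.08 points. The median exonic length of the genes with both values was 10340 bases for remodelers, 8499 for the cytoskeleton and 6839 for hnRNP proteins, against 5723 for all and 4313 for the proteasome. It was 8996 bases for the natural ADAR substrates, whose median difference was below that of all genes.

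The translation machinery did not move one way. Translation initiation factors were lower in 7 and higher in 8, with a median of 0.14 points. EIF5B, which joins the ribosomal subunits, stood at 0.54% and 1.24%, and EIF4A2, an RNA helicase, at 2.86% and 2.33%. Of 19 mRNAs with a 5' TOP motif, elongation factors among them, 7 were edited, 2 lower and 5 higher, with a median of 1.20 points. The median number of sites of these 7 is 1, so their differences rest on few sites. TPT1 has 2 sites at 1.73% and 3.14%. Of 80 cytosolic ribosomal protein genes 16 were edited, 9 lower and 7 higher, with a median of -0.36 points and a median of 1 site. RPS16 has 2 sites at 32.6% and 48.2%. Many of these genes have near-identical pseudogenes, so where their reads were counted is uncertain. Nuclear genes of the respiratory chain were lower in 19 and higher in 9, with a median of -0.14 points, and RNA of 16 of these 28 rose on polysomes (20 with the replicate block), as it did for 49 of all 75 on the list, where 12.9% of all edited genes and 10.4% of tested protein-coding genes rose. NDUFS1 has 30 sites at 1.42% and 1.13%. Mitochondrial ribosomal proteins divided 9 to 10, with a median of 0.03 points, although RNA of 9 of these 19 rose (16 with the replicate block). RNA of 47 of all 78 on that list rose. ER folding and translocation genes were lower in 12 and higher in 8, with a median of -0.02 points. RNA of 8 of these 20 rose (12 with the replicate block). None of 36 listed noncoding RNAs and none of 15 RNAs of the mitochondrial genome is in the editing table. All 4505 edited genes with an RNA test are protein-coding, so whether noncoding RNAs were open to editing calls cannot be told.

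Zinc finger genes were edited in 89 of 559 (15.9%, below the 29.7% of all), with 52 lower, 31 higher and a median of -0.20 points. Median RNA of the tested zinc finger genes was also lower, at 12.63 CPM against 21.28 CPM for all tested protein-coding genes. SLC transporters outside the SLC25 family divided 31 to 25, F-box and Kelch adaptors 20 to 18, ubiquitin ligases and cullins 18 to 17 with a median of -0.03 points, and stress granule and P-body scaffolds 10 to 10. CYLD, a deubiquitinase that restrains NF-kappaB, has 21 sites at 1.90% and 3.63%. MYCBP2, a large neuronal ubiquitin ligase, has 40 sites at 0.83% and 1.34%. PLK2, a polo-like kinase, has no value in total RNA and 8.16% on polysomes.

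**Figure D5:**
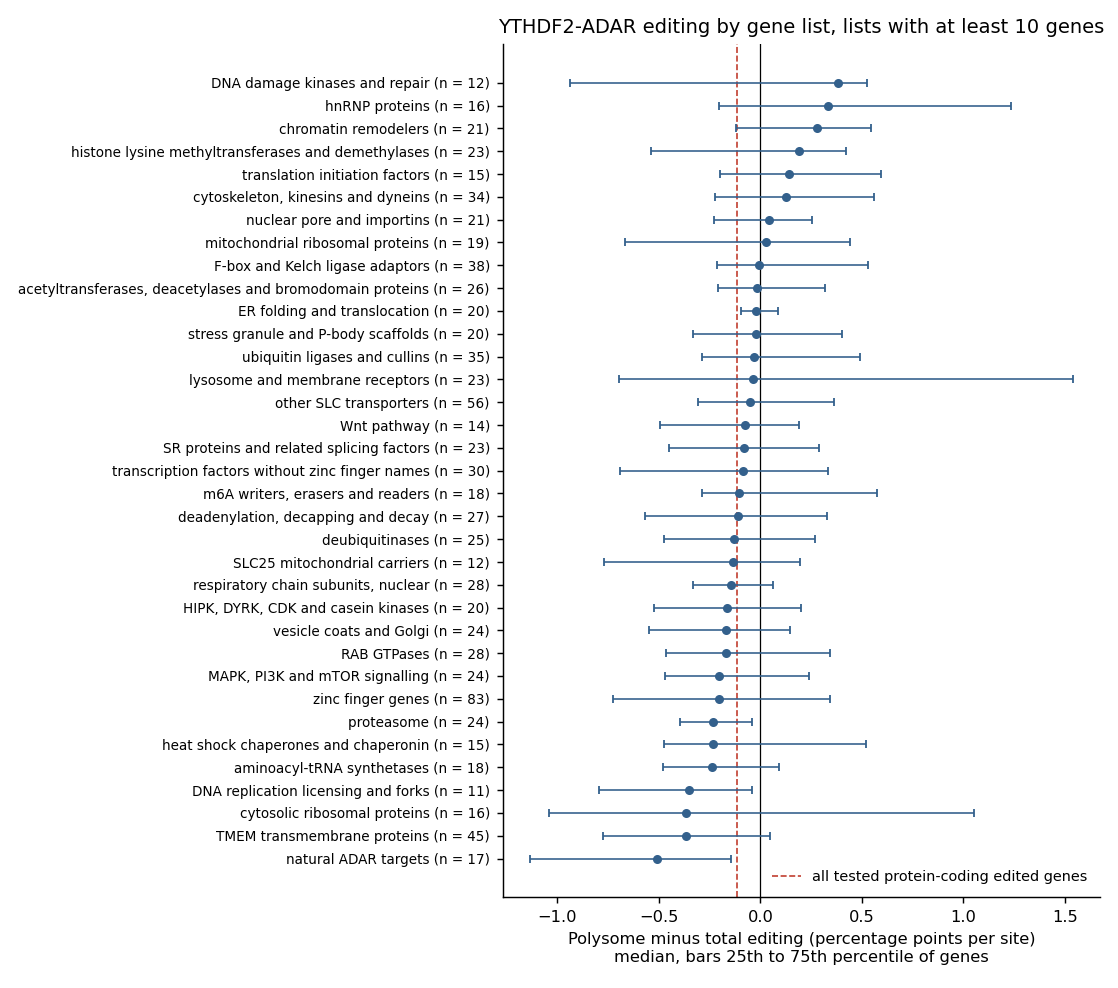
Median difference of editing per site, polysome minus total RNA, in percentage points, for the gene lists with at least 10 genes that have both values; bars run from the 25th to the 75th percentile of genes. The dashed line marks the median of all tested protein-coding edited genes, -0.12 points, and the bars of all lists cross it except those of ER folding and translocation and of natural ADAR targets.

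The genes were largely shared with the other readers. Of the 4547 genes, 3999 are in the YTHDF1-ADAR table (87.9% of these and 58.3% of its 6858) and 4228 in the YTHDF3-ADAR table (93.0% and 60.0% of its 7042), and 137 are in neither. Of the 137, 127 have both values, with 83 lower, 44 higher and a median of -0.32 points, and their median number of sites is 1. Among genes with at least 5 sites in both tables, 63.6% of 1282 had a difference of the same sign with YTHDF1-ADAR and 62.8% of 1438 with YTHDF3-ADAR. Spearman's rho across these genes was 0.27 and 0.19. Each is a description over genes of 2 pooled tables, with no p.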

How the data were processed

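Total and polysome RNA of 3 HEK293T lines was sequenced in 18 libraries; the kit kept strand and ribosomal RNA was depleted, per the labels' protocols. The submitters' processing notes name featureCounts 2.0.1, STAR 2.7.7, DESeq2 and GRCh38 without roles, and no strand setting or annotation release. The authors deposited raw read counts per gene with exonic length, and per construct a number of sites (a count) and an editing score per gene and fraction. Which coverage a site needed and how replicates were combined is not stated in the labels or files. The natural log odds ratio and the p-value columns the authors deposited in those tables were not used, nor was the deposited comparison table with its signal, log2 fold change and score columns, except for gene symbols and types.

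Here the score was divided by the number of sites. All symbols of the editing table matched, 4 with several gene IDs were left out of the RNA join, and RNA of 38 genes was not tested. Counts were fitted in R 4.3.3 with edgeR 4.0.16 (filterByExpr with a minimum count of 10, TMM, robust quasi-likelihood, 6 group means over 18 libraries), with Benjamini-Hochberg adjusted p under 0.05 over 26804 genes; the script was tested on simulated data. 1 row that names no human gene, with 4.3e-06% of counts, was left out. No libraries of a group agreed within sampling noise (lowest chi-square 6.248 per degree of freedom). Reads carry no molecular identifiers, so they need not be independent molecules.

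Same-numbered YTHDF2-ADAR total and polysome libraries deviated together (r = 0.423, 0.557 and 0.184 for replicates 1, 2 and 3, each highest with its own number), so the replicate number was also fitted as a block. DESeq2 1.42.0, other scalings, filters, site minimums and left-out libraries were alternatives. The genes and lists were chosen with earlier results of these data known. Genes named are the 10 with most sites; among genes with at least 5 sites the 10 largest and 10 smallest differences and the 5 highest means; up to 4 edited members of a list with most sites; and the construct genes. TEF and OFD1 are named as the next in rank, and HEK293T and brain markers by list. Some list members are withheld and are not reported here by name.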

Additional observations from a re-analysis of the deposited data

Results flagged for a closer look

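Of the named genes with at least 5 sites in all 3 tables, 7 had a difference of at least 5 points with YTHDF2-ADAR that was opposite in sign to that of both other readers. Each difference rests on 1 pooled value per fraction and was not tested. In percentage points, polysome minus total RNA, NT5DC1 stood at 10.02 with YTHDF2-ADAR and at -2.68 and -4.27 with YTHDF1-ADAR and YTHDF3-ADAR. ENC1 stood at 7.627 against -1.79 and -1.48. CRMP1 stood at 7.609 against -4.20 and -0.49. PDP1 stood at 6.373 against -2.29 and -3.21. BMPR2 stood at 6.322 against -0.25 and -4.43. RGS2 stood at 5.809 against -1.34 and -2.37. These 6 genes had editing of 0 to 1.08% per site in YTHDF2-ADAR total RNA and of 3.04% or more in total RNA of both other lines. GOLGA2 was the only gene of the 7 with a difference below 0, at -14.38 points against 4.72 and 7.28, and its polysome value of 0.91% with YTHDF2-ADAR compares with 37.7% and 24.7% with the other readers.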

How the results depend on the processing

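The share of genes with lower editing on polysomes, 58.3%, moved to 59.93% with at least 10 sites and to 60.17% with scores above 0 in both fractions, and the median difference of -0.12 points became -0.07723 when score sums were divided by site sums. Counts past 5 points, 56 lower and 50 higher, became 28 and 28 with at least 2 sites, 13 and 13 with at least 5 and 5 and 6 with at least 10. Past 2 points they were 202 and 228, past 10 points 20 and 13, and past 1.5-fold odds 1135 and 727. With scores above 0 in both fractions the higher count was 33. The direction of the excess thus depends on the step: at 2 points more genes were higher. For RNA, 580 rising and 230 falling genes became 2757 and 64 without normalization factors, 1204 and 596 in a fit of the 6 YTHDF2-ADAR libraries, and 1276 and 457 with the replicate block; without the filter 308 rose. Leaving out 1 library gave 201 to 423 rising and 141 to 166 falling genes, and leaving out replicate 2 of both fractions, an alternative chosen after seeing the data, gave 144 and 112. The cause of these changes was not tested beyond the smaller number of genes or libraries that each leaves. The other alternatives listed, which include DESeq2, DESeq2 size factors, protein-coding genes and genes of at least 5 CPM, stayed within 1.5 times the count or within a 95% interval over genes. That interval was 56.9% to 59.8% for the share and -0.136 to -0.091 points for the median difference. It takes genes as units, so it measures no spread between replicates and served only to sort the alternatives. RNA changes of single genes were followed through 13 alternatives. The genes were those with most sites, largest and smallest differences and highest means, and YTHDF1, YTHDF2, YTHDF3 and ADARB1. Other list members were not followed. Counted once per gene and alternative, 406 changes stayed on their side of the threshold, 36 lost the call and 13 gained it, and no called change turned its direction. The read depth behind the scores is unknown, so differences in genes with 1 site cannot be told from counting error.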
